A study of Mus musculus with 107 samples.

Results

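The RNA held by ribosomes of layer 5b projection neurons of the mouse cortex was compared with that of motor neurons of the mouse brainstem. Both were isolated by TRAP, short for translating ribosome affinity purification: a transgene puts a tagged ribosomal protein into 1 cell population, and the tagged ribosomes are then pulled from the whole tissue with the RNA they carry. The 6 TRAP arrays whose labels name these populations, 3 for each, were taken from the 76 TRAP arrays of the series, which cover 24 populations and stand beside 31 arrays of unbound RNA from 6 tissues. The layer 5b population came from cortex of line DU9, a bacterial artificial chromosome (BAC) transgene driven by glt25d2, a gene now named Colgalt2. The motor neuron population came from brainstem of line DW167, a BAC transgene driven by chat, the gene of the enzyme that makes acetylcholine. Each population therefore rests on a single transgenic line, and chat is also used by brainstem cholinergic neurons that are not motor neurons. The 3 replicates of a population were independent TRAP preparations, per the series text. Age, sex and strain of the animals are not given in the sources used here. RNA left unbound after the pull-down stood for each tissue: 9 arrays of unbound cortex, from several lines and 1 of them from the layer 5b line, and 3 arrays of unbound brainstem, all from the motor neuron line.

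Layer 5b of the cortex holds large glutamatergic pyramidal neurons, many of which send their axon out of the forebrain to the brainstem and spinal cord. The transcription factors Bcl11b (also called Ctip2) and Fezf2 are known for setting up this identity. Brainstem motor neurons drive the muscles of the eye, face, jaw, tongue and throat. They use acetylcholine, depend on LIM and T-box transcription factors such as Isl1 and Tbx20 during their development, and carry thick axons filled with neurofilaments. Corticospinal neurons of layer 5b and motor neurons are called upper and lower motor neurons, and both degenerate in amyotrophic lateral sclerosis (ALS).

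Levels below are log2 intensities, and the arrays of a population share 1 lowest value, taken as their background. It lay at 2.09 on the layer 5b arrays and 2.34 on the motor arrays. A mean level of 6 or more counted as expressed. Where the lower group lay under 6, it was set to 6 and the fold change is written as "at least". A gene was called different at a Benjamini-Hochberg adjusted p under 0.05 in limma and a difference of 2-fold or more, and the population with the higher level also had to exceed the unbound RNA of its tissue. Motor replicate 1 stood apart from its group: 6.06% of expressed genes lay more than 1 log2 unit from both other motor arrays, against 0.148% and 0.091% for replicates 2 and 3. Unbound brainstem replicate 1 stood apart in the same way, with 7.21% of expressed genes, and layer 5b replicate 3 did so to a smaller extent, with 2.24%. Leaving out motor replicate 1 gave 3654 genes on the layer 5b side and 1518 on the motor side, against 3678 and 1514 with it. Values that move with this array are given where they occur. In such bulk RNA, fewer cells with a transcript and less transcript per cell cannot be told apart. Among expressed genes, 9.15% in layer 5b and 8.2% in motor neurons read the same on all 3 arrays of the population. Their identical values do not measure replicate spread, and the cause was not tested. The limma fit took 1 spread per gene from all arrays of the series, so identical values in other populations enter it too. A very small adjusted p is therefore no measure of the spread among the compared arrays alone. Fitting the compared arrays alone gave 3635 genes on the layer 5b side and 1494 on the motor side. A setting chosen after seeing the data left out genes identical on all 3 arrays of a TRAP group. It kept 6784 genes for testing, with 2747 calls on the layer 5b side and 1097 on the motor side.

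Of 8697 genes tested, 3678 were higher in layer 5b neurons (42.3%) and 1514 were higher in motor neurons (17.4%). The arrays of both groups did not overlap for 7243 of the genes tested (83.3%), so a gap between the groups was common among all genes. The number of genes in each direction depended on how the arrays were scaled. With scaling on the biotinylated control probe sets, as the series text recommends, the median gene was 0.65 log2 units higher in layer 5b and 70.8% of the calls were higher there. With quantile normalization the median gene was 0.19 units lower, at -0.19, and 44.4% of the calls were higher in layer 5b, with 1880 genes higher in layer 5b (25.5%) and 2350 in motor neurons (31.9%). Both scalings called 1856 genes higher in layer 5b (21.3%) and 1483 higher in motor neurons (17.1%). Of the 1514 motor calls, 1483 were thus shared, while 1856 of the 3678 layer 5b calls were. For gene groups, the count under both scalings is given beside the count under control-probe scaling. Each is to be read against the shares of all genes tested. These were 42.3% and 17.4% under control-probe scaling, and 21.3% and 17.1% under both. A gene had to exceed unbound RNA in at least 1 population to be tested at all, so a member known from only 1 population had to differ, and the counts within a group describe it and do not test it.

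The population labels were first set against their defining genes. Bcl11b, a marker of layer 5b neurons, had levels of 12.81, 12.81 and 12.34 on the layer 5b arrays and 7.30, 5.16 and 5.15 on the motor arrays. Every layer 5b array lay above every motor array, and among the motor arrays replicate 1 was the highest. The difference was at least 101-fold (limma, adjusted p = 8.6e-29). Bcl11b was not called higher in layer 5b TRAP than in unbound cortex, at 1.11-fold, where its 9 arrays ran from 11.57 through a median of 12.48 to 13.27, and under quantile normalization, where it lay 0.40 units under unbound cortex at -0.40, it was not called. Prph, the gene of peripherin, an intermediate filament of neurons whose axons leave the brain, had levels of 2.59, 2.33 and 2.35 in layer 5b and 13.48, 13.17 and 13.37 in motor neurons. The groups were far apart, with layer 5b near the background of its arrays. The difference was at least 162-fold (adjusted p = 2.7e-62), and motor TRAP exceeded unbound brainstem 38.2-fold. Colgalt2, the driver of the layer 5b line, read 9.83, 10.41 and 9.44 on the layer 5b arrays and 2.87, 2.85 and 2.85 on the motor arrays. It was at least 14.8-fold higher in layer 5b neurons (adjusted p = 8.4e-24) and, among the 24 TRAP populations, was expressed in layer 5b alone, at a mean of 9.89. On the unbound cortex array of the same line it read 7.51, against at most 3.17 on those of other lines. A signal of the cells and one of the transgenic line can therefore not be told apart. The probe set of Chat, the driver of the motor line, lay at the background of both populations, so it checks nothing here. Slc18a3, the gene of the vesicular acetylcholine transporter, which lies within the Chat gene and is used by the same cells, read 13.16, 13.56 and 13.64 in motor neurons and 2.09 on every layer 5b array. Since Slc18a3 lies within the driver gene of the motor line, its signal is not free of the line either. Whether the transgene adds to it was not tested.

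**Figure D1:**
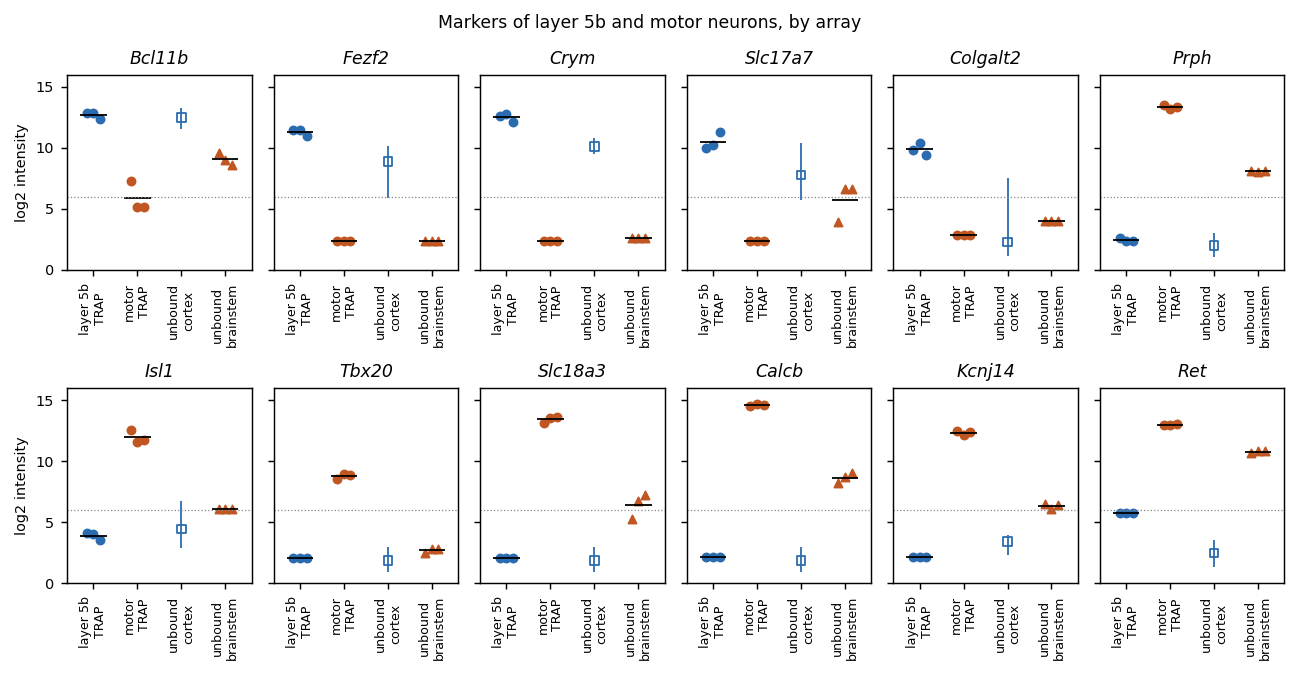
Log2 intensity (vertical axes) of 12 genes on each TRAP array: circles are the 3 layer 5b and the 3 brainstem motor arrays, bars their means, squares with lines the median and range of 9 unbound cortex arrays, triangles the 3 unbound brainstem arrays, and the dotted line the expression minimum of 6. Bcl11b, Fezf2, Crym, Slc17a7 and Colgalt2 lie higher on all layer 5b arrays, and Prph, Isl1, Tbx20, Slc18a3, Calcb, Kcnj14 and Ret on all motor arrays.

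The largest differences in favour of layer 5b included transcription factors, channels and kinases. Fezf2, a zinc finger factor that directs neurons to the subcerebral fate, read 11.44, 11.50 and 10.96 in layer 5b and 2.34 on all 3 motor arrays. Layer 5b thus held a clear signal and motor neurons none above background, and the difference was at least 39.4-fold (adjusted p = 2.5e-42). Crym, which encodes the thyroid hormone binding protein mu-crystallin, read 12.64, 12.76 and 12.08 in layer 5b and 2.34 on each motor array, at least 90-fold apart. The potassium channel subunit gene Kcnf1 had levels of 12.40, 12.64 and 12.46 against an identical 2.74 in motor neurons, at least 90.4-fold. Icam5, an adhesion molecule of forebrain dendrites, differed by at least 48.8-fold, and Itpka, a dendritic inositol trisphosphate kinase, by at least 112-fold. Mef2c, an activity-regulated transcription factor, reached 14.85, 14.78 and 14.44 in layer 5b and 7.36, 5.70 and 4.39 in motor neurons. All motor arrays lay far under all layer 5b arrays but spread widely among themselves, and the difference was at least 413-fold (adjusted p = 2.3e-37). Plk2, a kinase of active synapses, Ptk2b, a calcium-sensitive kinase, and Pdzrn3 differed by at least 146-fold, 88-fold and 50.2-fold. The other genes among the 15 of largest difference were Mpped1, Gas7, Neurod6, Cryl1, Slco1c1 and Baiap2, at 27.4-fold or more, and of these Neurod6 was not called under quantile normalization.

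Of 20 genes listed for subcerebral layer 5b neurons, 17 were tested, 12 were higher in layer 5b and 2 in motor neurons, with 9 and 2 under both scalings. Their median difference was 1.91 against 0.65 for all genes tested. Beside Bcl11b, Fezf2, Crym and Colgalt2, the list held Igfbp4, a secreted growth factor binding protein, 69.9-fold higher in layer 5b at 13.03, 13.08 and 13.41 against 7.37, 7.12 and 6.64. Both groups were tight and far apart. Sox5, a factor that controls the order in which deep-layer neurons form, was listed at a mean of 8.76 ± 0.43 (SD, n = 3) in layer 5b and 2.58 on each motor array. The 2 members higher in motor neurons were S100a10, a partner of annexin used to mark corticospinal cells, 7.26-fold, and the cadherin Cdh22, with a mean of 11.51 ± 0.44 in motor neurons and 10.05 ± 0.24 in layer 5b. Pcp4, a calmodulin-binding protein common in layer 5, was not called, at 14.77 ± 0.13 and 13.94 ± 0.30. Against unbound cortex, 13 of 18 members tested were higher in layer 5b TRAP, where 36.6% of all genes were, and none was called lower, where 4.96% were.

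Of 20 genes listed for cortical glutamatergic identity, 13 were tested and all 13 were higher in layer 5b, 10 of them under both scalings, with a median difference of 6.08. Slc17a7, the gene of the vesicular glutamate transporter VGLUT1, read 9.97, 10.25 and 11.30 in layer 5b and 2.34 on each motor array. The motor arrays showed no signal, and the difference was at least 22.7-fold (adjusted p = 4.6e-20). Neurod6 was identical at 10.92 on the 3 layer 5b arrays and at 2.34 on the motor arrays. Nrgn, a calmodulin-binding protein of dendritic spines, had means of 12.18 ± 0.14 and 4.59 ± 0.73. Camk2a, the kinase of synaptic plasticity, stood at 12.04 ± 0.34 in layer 5b and an identical 6.17 in motor neurons. Between the tissues, 16 of 17 members tested were higher in unbound cortex than in unbound brainstem, where 7.72% of all genes were. In layer 5b TRAP 7 of 18 were higher than in unbound cortex, a share near the 36.6% of all genes. Members not higher there included Mef2c, Nrgn, Camk2a and Neurod6.

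Calcb, which encodes the beta form of calcitonin gene-related peptide, read 14.52, 14.67 and 14.56 in motor neurons and 2.18 on each layer 5b array. Among the genes higher in motor neurons it had the largest difference of measured levels, at -12.41. It was at least 385-fold higher in motor neurons (adjusted p = 1.9e-67), where it also exceeded unbound brainstem, at 8.21, 8.67 and 9.03, by 61.7-fold. Sncg, the gene of gamma-synuclein, a protein of axons and terminals, read 15.06, 14.87 and 15.01 against 4.28 on each layer 5b array, at least 505-fold apart (adjusted p = 3.9e-54). Both genes separated the groups by wide margins with little spread among replicates. Chodl, a C-type lectin used as a marker of fast motor neurons, read 13.16, 13.03 and 12.86 in motor neurons and 4.56, 4.56 and 4.64 in layer 5b, at least 130-fold. Sh3bgr differed by at least 228-fold, and the homeobox genes Shox2 and Irx3 by at least 65.3-fold and 38.6-fold. Shox2 varied among the motor arrays, at 12.95, 11.70 and 11.43, and its unbound brainstem arrays were nearly as high at 11.41, 10.36 and 9.45. The others of the 15 genes of largest difference were Slc18a3, Prph, Kcnj14, Ahnak2, Cda, Gal, Cartpt, Uts2 and B230311B06Rik, at 21.2-fold or more. All 15 were called under both scalings.

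The 250 bases before the start of Prph, Sncg, Chodl and Cartpt, 4 genes among the most different in motor neurons, are shown. They are examples of genes high in motor neurons and under the expression minimum in layer 5b. They are read from RefSeq on build GRCm38.p6, 5′ to 3′ along the gene's strand, at chr15:99054924-99055173 on the plus strand, chr14:34374670-34374919 on the minus strand, chr16:78930698-78930947 on the plus strand and chr13:99900684-99900933 on the minus strand. Capitals mark the E-box letters CATCTG or CAGATG.
Prph: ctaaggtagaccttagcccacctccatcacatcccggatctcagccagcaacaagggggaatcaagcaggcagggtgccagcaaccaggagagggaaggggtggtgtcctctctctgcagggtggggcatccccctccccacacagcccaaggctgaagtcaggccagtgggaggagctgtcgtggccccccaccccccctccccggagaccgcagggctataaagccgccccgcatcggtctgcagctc
Sncg: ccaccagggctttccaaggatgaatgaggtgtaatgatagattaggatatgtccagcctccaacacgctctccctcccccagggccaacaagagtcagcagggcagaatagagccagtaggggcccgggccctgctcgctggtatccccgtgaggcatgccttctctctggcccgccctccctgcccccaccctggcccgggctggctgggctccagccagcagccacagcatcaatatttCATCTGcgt
Chodl: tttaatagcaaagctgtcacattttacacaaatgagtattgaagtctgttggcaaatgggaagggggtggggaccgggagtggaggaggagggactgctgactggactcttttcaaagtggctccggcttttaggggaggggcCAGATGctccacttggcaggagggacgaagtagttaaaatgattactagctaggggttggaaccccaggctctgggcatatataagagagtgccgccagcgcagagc
Cartpt: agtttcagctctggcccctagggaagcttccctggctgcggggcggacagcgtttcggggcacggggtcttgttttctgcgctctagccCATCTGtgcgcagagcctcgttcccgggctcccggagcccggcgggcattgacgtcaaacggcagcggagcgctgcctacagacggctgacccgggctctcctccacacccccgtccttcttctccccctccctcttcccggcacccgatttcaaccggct
This E-box, a sequence that basic helix-loop-helix factors can bind, was searched on both strands as CATCTG and its reverse complement CAGATG. It was present before 4 of the 12 motor genes of largest difference with a RefSeq entry, those of Sncg, Chodl, Cartpt and B230311B06Rik (33.3%), before 0 of 12 such layer 5b genes and before 14.5% of all 27025 promoters. The windows shown overstate the motor share, since Sncg, Chodl and Cartpt are among the 4 with a match and Prph is not. Before genes of the identity lists the E-box was present for 3 of 17 motor neuron genes (17.6%) and 3 of 14 cortical glutamatergic genes (21.4%). The homeodomain core TAATTA, which reads the same on both strands, was before none of the 24 genes of largest difference and before 4.9% of all promoters. A match describes letters and not a binding site, and the absence of a match says only that the letters are not in this window.

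Of 22 genes listed for motor neuron identity, 21 were measured, 14 were tested and 14 were higher in motor neurons under both scalings, with a median difference of -5.42. Without genes identical on all 3 arrays of a TRAP group, 6 members were tested and 6 called on the motor side, with a median of -6.65. Isl1, a LIM homeodomain factor of cholinergic motor neurons, read 12.53, 11.55 and 11.75 in motor neurons and 4.15, 4.03 and 3.55 in layer 5b. It was at least 61.5-fold higher (adjusted p = 5.0e-33) and exceeded unbound brainstem 59.3-fold. Tbx20, a T-box factor of cranial motor neurons, read 8.57, 8.96 and 8.83 in motor neurons and 2.09 on each layer 5b array, at least 6.90-fold apart. Lhx4 read 7.97, 7.66 and 7.32 in motor neurons. Mnx1, the homeobox gene that marks spinal motor neurons, read 3.78, 6.91 and 7.40. It was above background on motor replicates 2 and 3 and barely on replicate 1, its mean of 6.03 only just reached the expression minimum, and the bound on its fold change was 1.02. Without motor replicate 2 or 3 it fell under that minimum and was not called, with differences of -3.50 and -3.25. Esrrg, a nuclear receptor of slow motor neurons, was 4.46-fold higher in motor neurons, and Mmp9, a protease of fast motor neurons, at least 7.40-fold. Ahnak2 was at least 27.5-fold higher and the annexin gene Anxa4 had means of 11.42 ± 0.09 in motor neurons and 6.15 ± 0.20 in layer 5b. Against unbound brainstem, 13 of 15 members tested were higher in motor TRAP, where 9.41% of all genes were, and 1 was lower, where 32.2% were. That member was Gata3, a factor of serotonin neurons, with a mean of 3.25 ± 1.22 in motor TRAP and 7.09 in unbound brainstem.

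Of 15 genes listed for the cholinergic machinery, 10 were tested, 6 were higher in motor neurons under both scalings, and 1 was higher in layer 5b under control-probe scaling alone. Slc18a3 was at least 175-fold higher in motor neurons (adjusted p = 6.5e-54) and 131-fold over unbound brainstem. Slc5a7, the choline uptake transporter, was identical at 7.05 on the 3 motor arrays and at 2.09 on the layer 5b arrays, at least 2.06-fold apart. Ache, which encodes acetylcholinesterase, read 11.43, 12.26 and 12.42 in motor neurons and 9.08, 8.98 and 9.30 in layer 5b. The groups did not overlap and the difference was 7.55-fold (adjusted p = 2.1e-06). Ache also exceeded the unbound RNA of both tissues, 8.68-fold in layer 5b and 4.9-fold in motor neurons. Prima1, the membrane anchor of acetylcholinesterase, had a mean of 10.01 ± 0.31 in motor neurons and 3.54 ± 0.16 in layer 5b. The nicotinic receptor subunit gene Chrna3 stood at 6.79 ± 0.52 in motor neurons and at background in layer 5b. Chrna7, another nicotinic subunit, was the member higher in layer 5b, at 9.74 ± 0.24 against 8.72 ± 0.23, and this call was lost without layer 5b replicate 1, motor replicate 2 or motor replicate 3.

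Hox genes, which pattern the hindbrain and spinal cord along the body axis, were listed with 29 members, of which 25 were measured and 6 tested. None was higher in layer 5b, and Hoxc5 alone was called higher in motor neurons under control-probe scaling, where quantile normalization called 3 of 3. Without the requirement of a TRAP level above unbound RNA, 5 of 6 were called higher in motor neurons: Hoxb3, Hoxb4, Hoxb5 and Hoxc4 did not exceed unbound brainstem. Hoxc5 read 4.98, 8.19 and 8.48 on the motor arrays and 3.08, 8.29 and 9.03 in unbound brainstem. Replicate 1 was the low array in both fractions. Hoxb5 showed the same split, at 3.87, 11.37 and 11.70 in motor TRAP and 8.16, 11.68 and 12.04 in unbound brainstem, and so did Hoxc4, at 5.52, 10.30 and 10.30 against 7.25, 9.46 and 10.02. Without motor replicate 1, 4 of 7 tested Hox genes were called higher in motor neurons, and without motor replicate 2 or 3 none of 6 was. On the layer 5b arrays these 3 genes lay at 2.17 or lower.

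Genes of fast transmission set glutamatergic and cholinergic cells apart less simply. Slc17a6, which encodes the other main glutamate transporter VGLUT2, was not called, at 11.48 ± 0.30 in layer 5b and 10.94 ± 0.33 in motor neurons. It was lower in motor TRAP than in unbound brainstem, where its mean was 13.29. Of 9 fast transmitter genes listed, 7 were tested and 5 were higher in layer 5b, 4 of them under both scalings. Besides Slc17a7 these were genes of inhibitory transmission: Gad1, which makes GABA, read 14.55, 14.52 and 15.05 in layer 5b and 9.83, 10.85 and 10.28 in motor neurons, 20.9-fold apart. Slc32a1, the vesicular GABA transporter, had means of 10.86 ± 0.23 and 8.85 ± 0.15. Gad1 marks cortical interneurons, whose summed markers, Gad1 included, are given further on. In motor TRAP, 6 of 6 members tested were lower than in unbound brainstem, Slc6a5, the glycine transporter of brainstem inhibitory neurons, among them at 7.98 ± 0.25 against a mean of 11.44.

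Receptor subunits differed in both directions. Of 25 glutamate receptor genes listed, 17 were tested, 10 were higher in layer 5b and 2 in motor neurons, with 8 and 2 under both scalings and a median of 2.16. Gria2, the AMPA receptor subunit that keeps calcium out, read 13.24, 13.13 and 13.23 in layer 5b and 8.46, 8.54 and 8.46 in motor neurons. The groups were tight and 26.3-fold apart (adjusted p = 4.1e-25). Gria1 was 27.4-fold higher in layer 5b, while Gria4, at 9.35 ± 0.26 and 10.09 ± 0.24 in motor neurons, was called higher in motor neurons under quantile normalization alone. The metabotropic receptor genes Grm3, Grm2 and Grm5 were higher in layer 5b, Grm3 at least 60.8-fold. Grin3b, an NMDA receptor subunit known from motor neurons, was identical at 9.70 on the 3 motor arrays and at 2.99 on the layer 5b arrays, at least 13-fold higher in motor neurons. The other subunit higher in motor neurons was Grm4, identical at 7.49 against 5.64.

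Of 22 genes listed for inhibitory receptors, 13 were tested, 7 were higher in layer 5b and 2 in motor neurons, with 4 and 2 under both scalings. Gabrd, the extrasynaptic GABA-A receptor subunit, was at least 29.2-fold higher in layer 5b, with means of 10.87 ± 0.16 and 4.41 ± 0.05. Glra1, the adult glycine receptor subunit, read 8.14, 9.14 and 8.63 in motor neurons and 2.15 on each layer 5b array, at least 6.22-fold apart. Gphn, the gene of gephyrin, which anchors glycine and GABA-A receptors, stood at 10.37 ± 0.22 in motor neurons and 8.08 ± 0.47 in layer 5b, but the mean of its probe sets gave no call, at 0.045. Glrb, the glycine receptor beta subunit, was at 14.03 ± 0.17 and 14.05 ± 0.28 and was not called. Among 17 receptors for amines and peptides that were tested, 8 were higher in layer 5b, 4 of them under both scalings, and 4 in motor neurons under both. Those higher in motor neurons were the serotonin receptor genes Htr1d, Htr3a and Htr7 and the thyrotropin-releasing hormone receptor gene Trhr. Trhr had means of 9.74 ± 0.04 in motor neurons and 8.28 ± 0.43 in layer 5b, and a mean of 6.86 in unbound brainstem. Drd1, a dopamine receptor gene, and the somatostatin receptor genes Sstr2 and Sstr3 were among those higher in layer 5b, with Drd1 called under control-probe scaling alone.

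Of 30 neuropeptide genes listed, 18 were tested, 8 were higher in motor neurons under both scalings and 6 in layer 5b, 3 of them under both. After Calcb, the peptides of motor neurons were Gal (galanin), Cartpt, Uts2 (urotensin 2), Nts (neurotensin), Ucn (urocortin), Vip and Nppb. Gal read 9.45, 11.80 and 12.11 on the motor arrays and 2.65 on each layer 5b array, at least 34.8-fold apart. Cartpt read 10.04, 12.01 and 12.07 against 3.02, at least 41.5-fold. For both, motor replicate 1 was the lowest motor array and still far above layer 5b. For Nppb, at 2.38, 7.47 and 8.19, replicate 1 lay at background, and its mean of 6.01 only just counted as expressed, and the call was lost without motor replicate 2 or 3, at -3.19 and -2.83. The call of Vip was lost without motor replicate 1, at -0.86. Uts2 read 9.85, 10.51 and 10.85 in motor neurons, at least 21.2-fold over layer 5b. Nts was 17.8-fold higher in motor neurons, and Ucn, identical at 7.79 on the 3 motor arrays, at least 3.46-fold. In layer 5b the called peptides under both scalings were Cck, with means of 13.81 ± 0.12 and 11.99 ± 0.08, Penk, at 11.46 ± 0.19 and 8.96 ± 0.27, and the neurotrophin Bdnf. Bdnf read 9.14, 9.96 and 9.33 in layer 5b and 6.39, 4.96 and 4.96 in motor neurons, at least 11.1-fold apart.

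**Figure D2:**
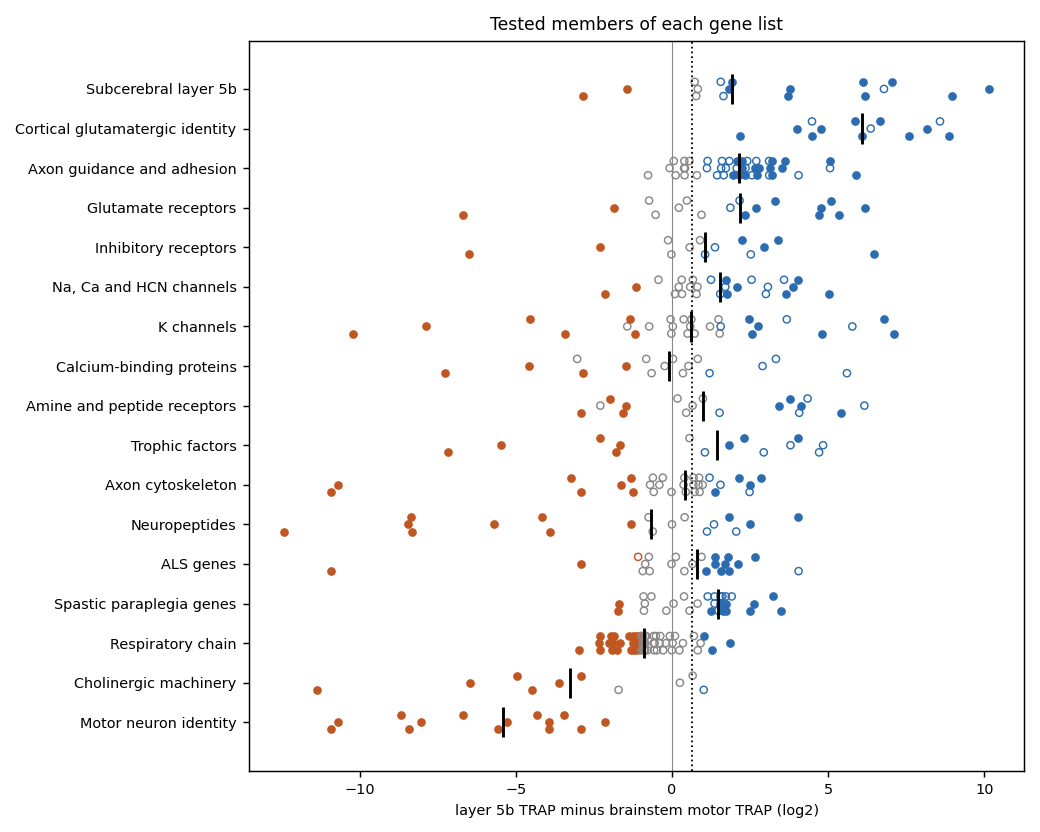
Layer 5b minus motor TRAP difference (log2, horizontal axis) of every tested gene in 17 gene lists: filled points were called under both scalings, open coloured points under control-probe scaling alone, grey points were not called, black bars are list medians and the dotted line is the median of all genes tested, 0.65. All tested motor neuron identity genes lie on the motor side, all cortical glutamatergic genes on the layer 5b side, and most respiratory chain genes to the left of the dotted line.

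Of 47 potassium channel genes listed, 28 were tested, 9 were higher in layer 5b, where 42.3% of all genes were, and 6 in motor neurons, where 17.4% were, with 6 and 6 under both scalings. Kcnj14, an inward rectifier of motor neurons, read 12.49, 12.17 and 12.35 in motor neurons and 2.14, 2.13 and 2.13 in layer 5b. It was at least 80.9-fold higher (adjusted p = 1.6e-57) and exceeded unbound brainstem 64-fold. Kcnk3, the leak channel TASK1 that sets motor neuron excitability, read 10.54, 10.65 and 10.64 against an identical 6.07, 23.2-fold apart. Kcng4, a silent subunit that modifies other channels, was at least 15.9-fold higher in motor neurons, while Kcnip1, Kcnh2 and Kcnmb4 completed the 6. Layer 5b was higher for the modifier subunit Kcnv1, at least 11.7-fold, for the M-current subunit Kcnq5, 28.1-fold, and for Kcnd2 and Kcnd3, which carry the transient A-type current. Kcna1, a channel of axons, was at 13.29 ± 0.05 in motor neurons and 11.86 ± 0.07 in layer 5b and was not called, since it did not exceed unbound brainstem. Of 25 sodium, calcium and HCN channel genes tested, 14 were higher in layer 5b, 7 of them under both scalings, and Cacng2 and Trpm4 in motor neurons under both. Cacna2d1, an auxiliary calcium channel subunit, was 32.3-fold higher in layer 5b. Without motor replicate 2 or 3 the call of Cacng2 was lost, at -1.88 and -1.95, and 1 member of this list remained higher in motor neurons.

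Genes of calcium-binding proteins were called in both directions, and 8 of 16 tested were not called. Motor neurons were higher for 4 under both scalings, where 17.1% of all genes were. Layer 5b was higher for 4 under control-probe scaling alone, where 42.3% of all genes were. Pcp4l1, a small relative of Pcp4, was 155-fold higher in motor neurons, with means of 13.41 ± 0.30 and 6.14 ± 0.39. S100b, better known as an astrocyte protein, read 14.10, 14.20 and 14.20 in motor neurons and 9.49, 9.21 and 10.10 in layer 5b, 23.7-fold apart. It was 2.02-fold over unbound brainstem, a call lost without motor replicate 2 or 3, at 1.00, or unbound brainstem replicate 1, at 0.83, while 16 of 18 astrocyte markers were lower in motor TRAP than there. Pvalb (parvalbumin) and Calb2 (calretinin) were not called, and Calb1 (calbindin) was not tested because it exceeded unbound RNA in neither population.

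Among genes of trophic signalling, 14 of 26 listed were tested, 8 were higher in layer 5b, 3 of them under both scalings, and 5 in motor neurons under both. The median of the list was 1.44 under control-probe scaling and -1.22 under quantile normalization. Ret, the receptor kinase for glial cell line-derived neurotrophic factor (GDNF), read 12.92, 12.95 and 13.02 in motor neurons and 5.79 on each layer 5b array. The difference was at least 125-fold (adjusted p = 1.7e-22), and unbound brainstem was also high, at 10.69, 10.79 and 10.84. Gfra1, the GDNF-binding coreceptor of Ret, was 4.94-fold higher in motor neurons, whereas its relative Gfra2 was higher in layer 5b under control-probe scaling alone. Fgf1, a growth factor stored in motor neurons, read 13.42, 13.24 and 13.36 against a layer 5b mean of 7.87 ± 0.12, 44.4-fold apart. The receptors for ciliary neurotrophic factor and leukemia inhibitory factor, Cntfr and Lifr, were the remaining members higher in motor neurons. The neurotrophin receptor genes Ntrk2 and Ntrk3 were higher in layer 5b under both scalings, as was Bdnf, the ligand of Ntrk2.

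Of 35 genes listed for the axon cytoskeleton, 30 were tested, 7 were higher in motor neurons under both scalings and 7 in layer 5b, 4 of them under both. Neurofilament genes differed by subunit. Nefh, the heavy subunit, read 14.17, 13.98 and 14.04 in motor neurons and 11.05, 11.33 and 11.05 in layer 5b, 7.58-fold apart (adjusted p = 1.0e-07). Nefm, the medium subunit, was 3.11-fold higher in motor neurons. Nefl, the light subunit, was not called, at 14.53 ± 0.07 and 13.92 ± 0.17. Prph, Sncg, Stmn2, Tubb6 and Uchl1 were the other members higher in motor neurons, but Stmn2 was not called without layer 5b replicate 3, at -1.10, nor Uchl1 without motor replicate 3, at -1.15. Layer 5b was higher for Mapt, the gene of tau, with means of 13.35 ± 0.35 and 11.20 ± 0.28, and for Stmn4, Tubb2b and Gap43.

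The genes listed for ALS were not set to 1 side. Of 39 genes listed for ALS, 22 were tested, 10 were higher in layer 5b and 3 in motor neurons. These counts were near the 42.3% and 17.4% of all genes tested. Under both scalings 9 and 2 were called, where 21.3% and 17.1% of all genes were. The median was 0.80 against 0.65 for all genes tested. The 3 on the motor side were Prph, Nefh and Chchd10, the last under control-probe scaling alone and not without layer 5b replicate 3, at -0.96. Sod1, the gene of a superoxide dismutase, had means of 15.89 ± 0.10 in motor neurons and 14.96 ± 0.16 in layer 5b, 1.91-fold apart and under the 2-fold minimum. Tardbp, the gene of the RNA-binding protein TDP-43, was 3.46-fold higher in layer 5b, and the related RNA-binding protein genes Hnrnpa1, Hnrnpa2b1 and Ewsr1 were higher there too. The list for hereditary spastic paraplegia, a disease of long corticospinal axons, held 38 genes, of which 31 were tested. Layer 5b was higher for 20, where 42.3% of all genes were, and for 9 under both scalings, where 21.3% were. Motor neurons were higher for 2, where 17.4% of all genes were, and the median was 1.48 against 0.65 for all genes tested. Spast, which severs microtubules, was 2.57-fold higher in layer 5b under control-probe scaling and not called under quantile normalization. Reep1 and Rtn2, which shape the endoplasmic reticulum, were 3.24-fold and 3.35-fold higher in motor neurons under both.

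Axon guidance and adhesion genes lay mostly on the layer 5b side. Of 57 listed, 43 were tested, 33 were higher in layer 5b, 16 of them under both scalings, and none in motor neurons, with a median of 2.15. Pcdh8, an activity-regulated protocadherin, was 59.2-fold higher, and the ephrin receptor gene Epha7 33.6-fold. The semaphorins Sema3e and Sema4a, the repellent Slit1 and the netrin receptor Unc5a were also called under both scalings. Under quantile normalization 1 member, Sema6a, was higher in motor neurons, at 7.73 against 6.96 under control-probe scaling. Of 10 matrix genes tested, 5 were higher in layer 5b and 1 in motor neurons under both scalings, among them Reln (reelin) and the proteoglycan genes Bcan and Ncan in layer 5b and Mmp9 in motor neurons. Of 13 growth and injury genes tested, 5 were higher in motor neurons under both scalings, including Jun, 2.56-fold, and 4 in layer 5b, including Cap2, an actin-binding protein, 24-fold. Of 11 retinoid pathway genes tested, 5 were higher in layer 5b, 3 of them under both scalings, and Crabp1 and Crabp2 in motor neurons, where the call of Crabp2 was lost without motor replicate 2 or 3, at -1.72 and -1.50. Of 4 tested genes of major histocompatibility complex class I, 0 were called under control-probe scaling and 1, on the motor side, under quantile normalization.

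Genes of the mitochondrial respiratory chain went the other way. Of 61 listed, 56 were tested. Motor neurons were higher for 23, where 17.4% of all genes were, and layer 5b for 3, where 42.3% were. Under both scalings the counts were 20 and 3. The median difference of the list was -0.89, against 0.65 for all genes tested, and -0.71 against -0.19 under quantile normalization. Atp5l, a subunit of ATP synthase, was 7.87-fold higher in motor neurons, with means of 13.36 ± 0.22 and 10.38 ± 0.12, and Ndufb10, of complex I, 5.06-fold. The 3 members higher in layer 5b were Ndufs1, 3.6-fold, Sdha and Uqcrc2, the last not called without motor replicate 1, at 0.96. Between the tissues, 22 of 57 members were higher in unbound brainstem than in unbound cortex, a share near the 33.1% of all genes. The median of the list there, cortex minus brainstem, was -0.90, against -0.57 for all genes tested. Over unbound RNA, 4 of 57 members were higher in motor TRAP, where 9.41% of all genes were, and 13 of 57 in layer 5b TRAP, where 36.6% were.

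Many of the genes also differed between the tissues. Of the 1514 genes higher in motor neurons, 954 (63%) were also higher in unbound brainstem than in unbound cortex, where 33.1% of all genes were, and 674 (44.5%) exceeded unbound brainstem by the call, where 9.41% did. Of the 3678 genes higher in layer 5b, 521 (14.2%) were also higher in unbound cortex, where 7.72% of all genes were, and 2057 (55.9%) exceeded unbound cortex by the call, where 36.6% did. The calls between the populations required a TRAP level above unbound RNA, which favours these last shares. The difference of the TRAP gains, layer 5b over its tissue minus motor neurons over theirs, was called higher for 5742 of 10918 genes (52.6%) and lower for 641 (5.87%). Under quantile normalization these were 2626 (25.2%) and 2052 (19.7%). Genes called in both the direct comparison and this difference, with unbound tissues within 1 log2 unit of each other, numbered 2359 for layer 5b and 206 for motor neurons.

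On the motor side of that set, the 10 genes of largest difference were Tbx20, Mxra7, Dmp1, Gem, Lcn2, Ct55, Vdr, Ppp1r1c, Slc5a7 and Gna14. Tbx20 lay at 2.48, 2.81 and 2.81 in unbound brainstem, near the unbound cortex median of 1.86, so the motor signal of 8.79 ± 0.20 had no counterpart in either tissue's remaining RNA. Vdr, the vitamin D receptor gene, read 7.52, 7.59 and 7.55 in motor neurons and 2.47 on each layer 5b array, and Lcn2, a secreted iron-binding protein, 7.49, 7.53 and 7.55 against 2.09. Both were tight and near background elsewhere among these 4 groups. Mxra7 differed by lying low in layer 5b: it read 3.25 on each layer 5b array, against an unbound cortex median of 7.42, and 9.54, 9.51 and 9.50 in motor neurons. All 10 were called under both scalings.

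On the layer 5b side the 10 genes were Slco1c1, Kcnip3, Lamb1, Sulf1, Slc1a3, Acss1, Vcam1, Pdgfra, Wnt7b and Efemp1. Several of them are textbook genes of other cortical cells: Slc1a3 is the glutamate transporter of astrocytes, Pdgfra marks oligodendrocyte progenitors, and Vcam1 is an adhesion molecule of vessel walls. Slc1a3 had means of 10.03 ± 0.63 in layer 5b, 3.33 ± 0.66 in motor neurons, 8.92 in unbound cortex and 8.17 in unbound brainstem. Slco1c1, a thyroid hormone transporter of vessels and astrocytes, read 10.41, 11.48 and 10.44 in layer 5b and 2.74, 2.34 and 2.34 in motor neurons. Its highest level among the 24 populations was 11.73 in cortical astrocytes. Of the 2359 genes, 554 (23.5%) were higher in at least 1 of the 3 cortical glial TRAP populations than in layer 5b TRAP, as were 42.3% of all genes tested. The 2359 genes were chosen for a high layer 5b level, which by itself lowers their share, so the comparison does not measure glial RNA. Kcnip3, a calcium sensor of potassium channels, and Wnt7b, a signal of cortical neurons, were higher than unbound cortex 5-fold and 5.31-fold.

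**Figure D3:**
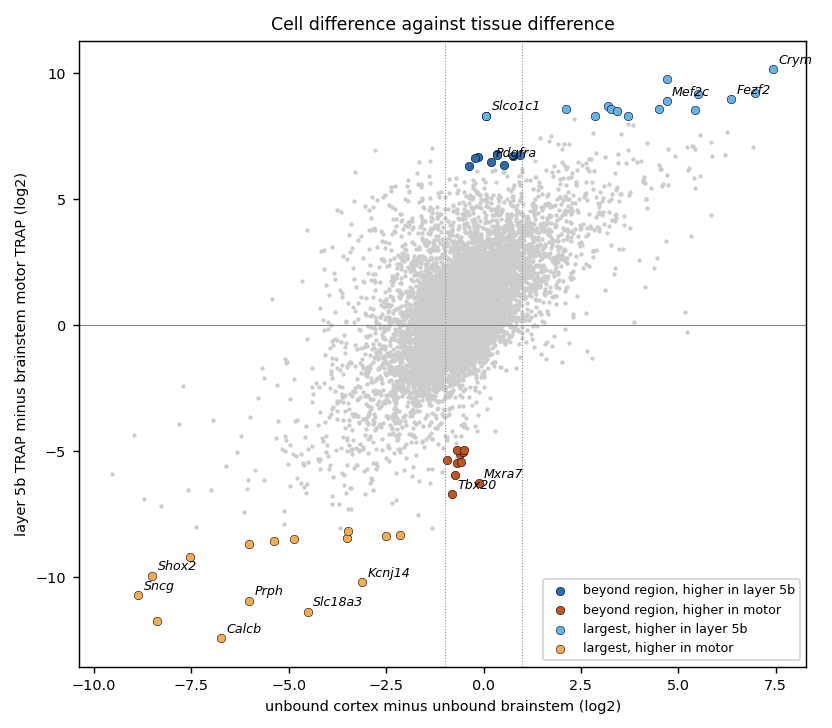
Layer 5b minus motor TRAP difference (log2, vertical axis) against unbound cortex minus unbound brainstem difference (log2, horizontal axis) for each tested gene, with the 15 genes of largest difference per direction and the 10 per direction whose tissues lay within 1 unit (dotted lines) in colour. Calcb, Prph, Sncg and Slc18a3 differ between the tissues in the same direction as between the populations, while Tbx20 and Mxra7 lie between the dotted lines.

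Markers of astrocytes, microglia and vessels had higher sums on the layer 5b arrays than on the motor arrays, and their part in the differences above was not tested. Of 18 astrocyte markers, 18 had a mean of 6 or more in layer 5b and 10 in motor neurons, and their summed linear intensity ran from 59200 to 65800 on the layer 5b arrays and from 29800 to 34900 on the motor arrays. Unbound cortex spanned 22600 to 71000 and unbound brainstem 62700 to 88000. S100b, higher in motor neurons as given above, made up the largest part of the motor sum. Of 14 microglial markers, 7 were expressed in layer 5b and 3 in motor neurons, with sums of 8950 to 14200 and 454 to 955. Csf1r, the defining receptor of microglia, stood at 11.79 ± 0.11 in layer 5b and 6.53 ± 1.20 in motor neurons. Of 15 vessel markers, 12 and 3 were expressed, with sums of 8620 to 14100 on the layer 5b arrays, 4870 to 6010 on the motor arrays and 927 to 5780 in unbound cortex. Vessel markers were thus higher in layer 5b TRAP than in the tissue it came from. Cldn5, the tight junction protein of endothelium, read 9.90, 9.40 and 9.08 in layer 5b, against an unbound cortex range of 2.95 to 5.69 and an identical 2.51 on the motor arrays. It was at least 11-fold higher in layer 5b than in either, and its layer 5b mean of 9.46 was the highest of the 24 populations. Sox17, Flt1 and Tek, further endothelial genes, were called over unbound cortex as well, Tek under control-probe scaling alone. Sums of cortical interneuron markers ran from 37300 to 49000 in layer 5b, 7270 to 12100 on the motor arrays and 17200 to 63000 in unbound cortex. Gad1 made up the largest part of the layer 5b sum. Of 11 such markers tested against unbound cortex, 2 were higher in layer 5b TRAP and 4 lower. Of the 3678 genes higher in layer 5b, 920 (25%) were higher in at least 1 of the 3 cortical glial TRAP populations than in layer 5b TRAP. Of the 1856 called under both scalings, 320 (17.2%) were, against 3681 of the 8697 genes tested (42.3%). A call on the layer 5b side chooses genes with a high layer 5b level, which by itself lowers these shares. They do not measure how much glial RNA the layer 5b arrays held.

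Markers of most other cell types were lower in motor TRAP than in unbound brainstem. Sums of oligodendrocyte markers ran from 12900 to 22700 on the motor arrays and from 140000 to 174000 in unbound brainstem, and all 14 members tested were lower in motor TRAP. Sums of brainstem inhibitory and relay neuron markers ran from 4910 to 6970 against 26100 to 40000, and those of monoamine neurons from 1050 to 2020 against 4520 to 6960. The monoamine range did not lie at background: Tph2, the enzyme of serotonin synthesis, stood at 7.23 ± 1.19 in motor TRAP and at a mean of 10.28 in unbound brainstem. Of 4 markers of meninges and Schwann cells tested, 2 were higher in motor TRAP, Pmp22 and Dcn, and 2 were lower. The summed intensity of the list ran from 11000 to 12200 against 3620 to 4450 in unbound brainstem and 1780 to 3140 in layer 5b. Most of the motor sum was Pmp22: 2 of 7 members were expressed in motor TRAP, and the list median of 2.45 lay near background. The interneuron markers Vip and Htr3a and the vessel marker Itm2a were also higher in motor TRAP than in unbound brainstem, though Vip was not called without motor replicate 1, at 0.84, or unbound brainstem replicate 2 or 3, at 1.23 and 0.79. Pmp22, a myelin protein of Schwann cells, read 13.38, 13.28 and 13.28 in motor TRAP and 11.19, 11.15 and 11.60 in unbound brainstem, and was 55.4-fold higher than in layer 5b.

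Both populations shared 354 genes that exceeded the unbound RNA of their own tissue, 3.72% of the 9505 genes tested in both. They made up 36.2% of the 979 such genes of motor neurons, near the 36.6% of all genes higher in layer 5b TRAP. Of the 3671 such genes of layer 5b they made up 9.64%, near the 9.41% of all genes higher in motor TRAP. The number shared was thus close to that given by the shares of all genes. Under quantile normalization 349 genes were shared, and 151 genes were in both of these sets. Of the 354, 136 were higher in motor neurons, 24 in layer 5b and 194 in neither. By the smaller of its gains, Susd2, a membrane protein gene, came first: it read 8.56, 8.54 and 8.56 in layer 5b and 11.75, 12.09 and 12.43 in motor neurons, and its gains were 4.86 and 4.48 log2 units. Ecel1, an endopeptidase of neurons known from injured nerves, gained 4.41 and 4.82, and Hspb1, a small heat shock protein mutated in inherited motor neuropathy, 3.90 and 4.71. Both were higher in motor neurons, by 6.45-fold and 43.6-fold. Fam43b was identical within each group, at 9.07 in layer 5b and 9.05 in motor neurons, with gains of 3.21 and 3.17. Clic1 and Gm2102 gained over 3 in both as well. Qrfpr, a peptide receptor gene, was 6.01-fold higher in layer 5b, but motor replicate 1 read 5.11 where replicates 2 and 3 read 8.30 and 8.06. Sult2b1, Wdr25 and Kcnk12 completed the 10 genes, the last pair with motor levels of 6.45 ± 0.09 and 6.79. Tubb3, the neuronal tubulin, was 9.31-fold and 4.93-fold over unbound RNA and did not differ by the call between the populations, at 13.38 ± 0.18 and 13.79 ± 0.41.

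**Figure D4:**
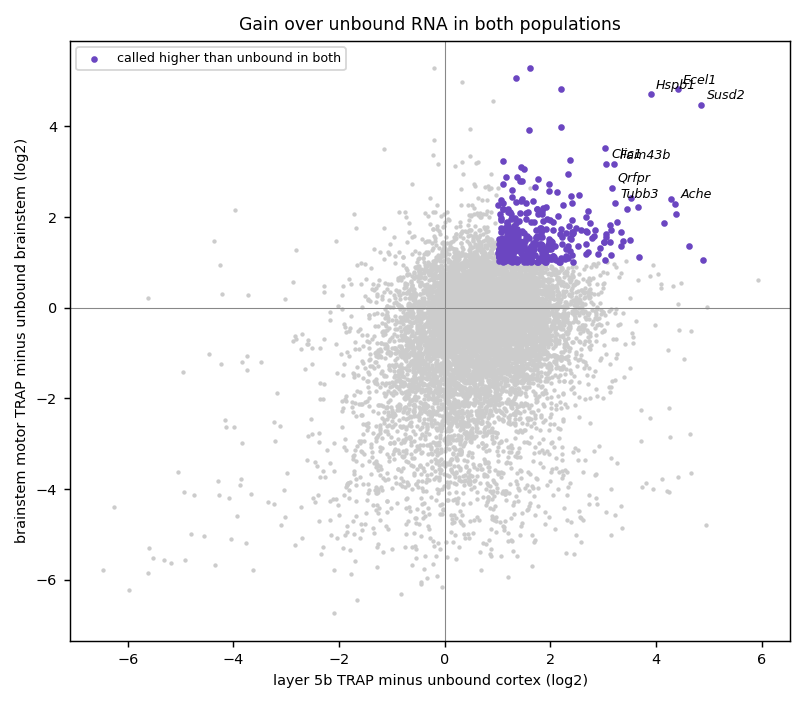
Gain of motor TRAP over unbound brainstem (log2, vertical axis) against gain of layer 5b TRAP over unbound cortex (log2, horizontal axis) for the 9505 genes tested in both, with the 354 genes called higher than unbound in both in colour. Susd2, Ecel1 and Hspb1 have gains of 3.90 or more in both populations.

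Across the 24 TRAP populations, the motor genes of largest difference fell into sets by where else they were expressed. Prph and Calcb were expressed in 2 populations, brainstem motor neurons, at 13.34 and 14.59, and spinal cord cholinergic neurons, at 13.06 and 14.19. Kcnj14, Grin3b, Lhx4 and Mnx1 were expressed in the same pair. Slc18a3 and Slc5a7 were expressed in the 4 cholinergic populations, and Sncg led in them, at 14.98 in the brainstem, 14.30 in the spinal cord, 13.24 in the basal forebrain and 12.81 in the striatum. Isl1 was highest in cholinergic neurons of the basal forebrain, at 13.18. Tbx20 and Ucn were expressed in brainstem motor neurons alone, at 8.79 and 7.79. Shox2, at 12.03 in brainstem motor neurons, was at background in spinal cord cholinergic neurons, at 2.85, and reached 6.57 in striatal cholinergic neurons. Each of these levels rests on a few arrays of 1 line, and the differences between neighbouring populations were not tested.

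The layer 5b genes were more widely shared. Fezf2 stood at 11.30 in layer 5b, 11.03 in layer 5a and 10.88 in layer 6, and was expressed in 9 populations, cortical astrocytes among them at 10.53. Crym was highest in layer 5b, at 12.49, closely followed by striatal Drd1 neurons at 12.33, and was expressed in 14 populations. Bcl11b was highest in the striatal medium spiny neurons, at 14.78 and 14.61, before layer 5b at 12.65 and layer 6 at 12.28. Kcnf1, Icam5 and Mef2c had means of 12.59, 11.80 and 14.76 in layer 5a and 12.50, 11.61 and 14.69 in layer 5b, a difference that was not tested. Of the genes named here for layer 5b, Colgalt2 alone was expressed in a single population. It is the driver of the layer 5b line, and unbound RNA of that line also held it, so cell and line cannot be told apart.

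**Figure D5:**
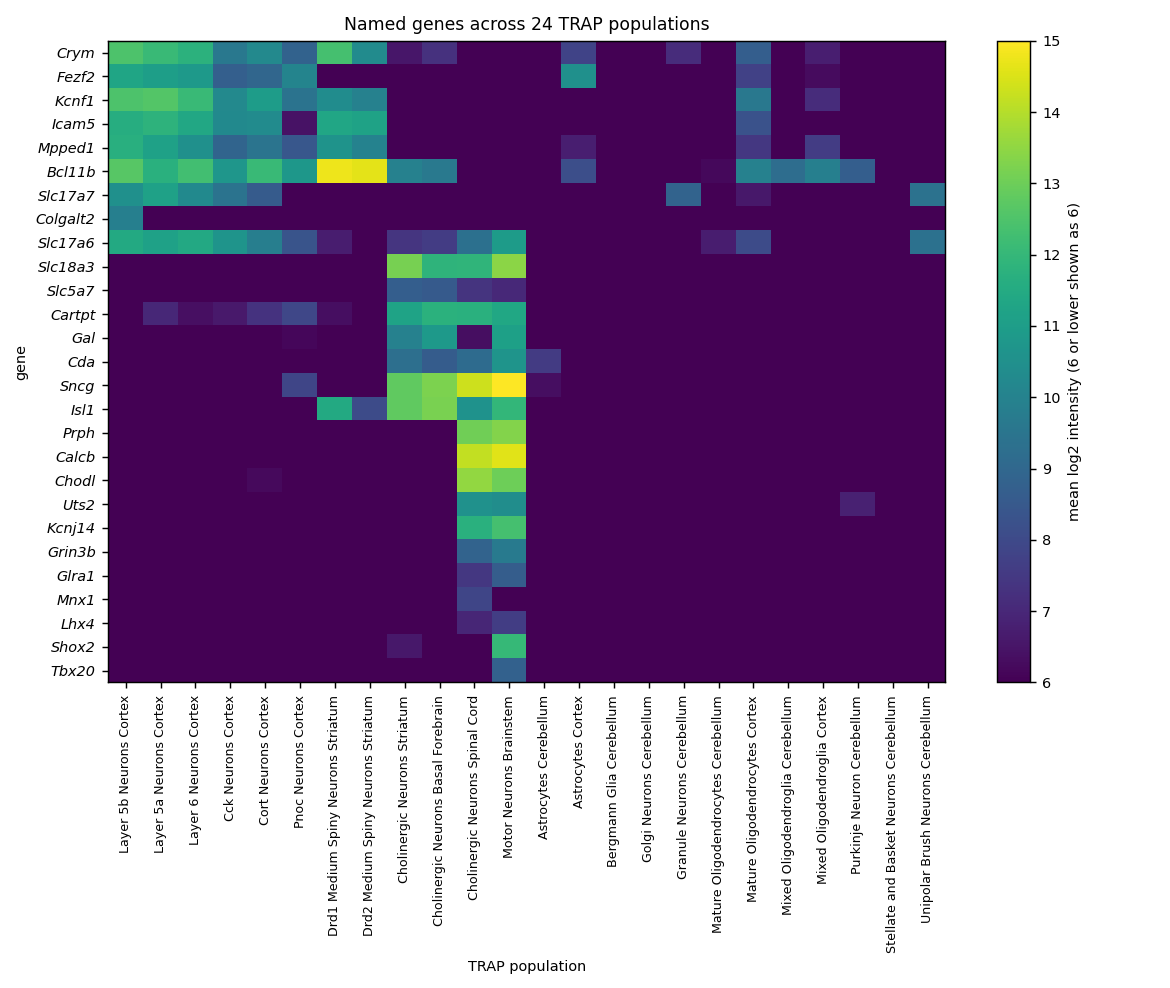
Mean log2 intensity (colour, levels of 6 or lower shown as 6) of 27 genes (rows) in 24 TRAP populations (columns). Prph and Calcb are coloured in brainstem motor and spinal cord cholinergic neurons, Tbx20 in brainstem motor neurons, Colgalt2 in layer 5b, and Fezf2, Crym and Bcl11b in several forebrain populations.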

How the data were processed

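The deposited values are linear intensities of 45101 probe sets of an Affymetrix mouse expression array, made by the authors with GCRMA within groups of arrays, per the series text and the submitters' processing notes. RNA was amplified in 2 cycles, per the labels' protocols. Intensities were set to at least 1, put on the log2 scale and shifted so that 18 biotinylated control probe sets were equal between array groups, which the authors' series text recommends. The 30 groups that GCRMA normalized coincide with the terms of the fit and cannot be told apart from them. Symbols came from the platform annotation: 34945 probe sets had 1 symbol, 932 several and 9224 none. Each of 18193 genes took its probe set of highest mean. limma 3.58.1 (lmFit, eBayes with trend, R 4.3.3) fitted all arrays together, with Benjamini-Hochberg adjustment over all genes tested, and was tested on simulated data. A call needed an adjusted p under 0.05, a 2-fold difference, a mean of 6 or more in a compared group and, between the populations, a TRAP level above unbound RNA on the higher side. The exact permutation test of 3 arrays against 3 cannot go below 0.1. The number of arrays limits the precision.

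Named genes were Bcl11b, Prph, the drivers, members of 33 lists (672 of 743 genes measured), the 15 genes per direction of largest called difference without overlap, the 10 per direction also called in the difference of gains with the unbound tissues within 1 log2 unit, and the 10 with the largest smaller gain. The members and lists were chosen with earlier results of these data known. Motor TRAP and unbound brainstem arrays of the same number deviated together (r = 0.58, 0.56 and 0.46 over genes). Motor replicate 2 with unbound replicate 3, and 3 with 2, did so nearly as much (r = 0.45 and 0.40). The values thus set replicate 1 apart in both fractions and do not resolve the pairing of replicates 2 and 3. Promoters are from RefSeq. Alternatives covered scaling, filters, probe set choice, a test against the 2-fold bound, the arrays fitted, a replicate block and leaving out each array.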

Additional observations from a re-analysis of the deposited data

Results flagged for a closer look

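The difference of TRAP gains, layer 5b over unbound cortex minus motor neurons over unbound brainstem, is given for 22 genes named here. For the first 20 a call in this difference was part of how they were chosen, so that they pass limma's test is no finding. On the layer 5b side it was 8.23 log2 units for Slco1c1, 6.84 for Vcam1, 6.82 for Acss1, 6.68 for Efemp1, 6.44 for Kcnip3, 6.41 for Sulf1, 6.28 for Pdgfra, 5.96 for Slc1a3, 5.84 for Lamb1 and 5.83 for Wnt7b. On the motor side it was -6.14 for Mxra7, -5.90 for Tbx20, -5.21 for Dmp1, -4.86 for Lcn2, -4.79 for Gem, -4.53 for Ppp1r1c, -4.47 for Vdr, -4.44 for Gna14, -4.39 for Ct55 and -4.27 for Slc5a7. Kcnk12, at 1.88, and Wdr25, at 1.11, exceeded unbound RNA in both populations, but their differences changed sign under quantile normalization, to -0.52 and -0.87.

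Among the 9 unbound cortex arrays, 1 array lay far from the others for 16 of 134 genes examined, where chance flags about 1 in 20 groups. The array of the mature oligodendrocyte line was the lowest for 11 of them, with levels of 7.84 for Baiap2, 4.57 for Dcn, 9.40 for Camk2a, 5.92 for Fezf2, 7.42 for Icam5, 4.62 for Kcnk3, 10.53 for S100a10, 7.81 for Sema4a, 7.35 for Slc1a3, 1.98 for Sox17 and 3.5 for Sult2b1. The array of the layer 5a line was the highest for 4, with 12.70 for Kcna1, 11.23 for Penk, 11.95 for Tubb3 and 13.36 for Vip. The array of the layer 5b line was the highest for Colgalt2, the driver of that line, at 7.51 against at most 3.17 on the others.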

How the results depend on the processing

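Quantile normalization gave 1880 genes higher in layer 5b and 2350 in motor neurons, 1610 higher and 1436 lower than unbound cortex in layer 5b TRAP, 1828 higher and 2085 lower than unbound brainstem in motor TRAP, 1529 higher and 1941 lower in unbound cortex than unbound brainstem, and 2626 higher and 2052 lower for the difference of gains. The share of calls higher in layer 5b TRAP than in unbound cortex was 88.1% with control-probe scaling and 52.9% with quantile normalization. No further scaling gave 1511 and 1883 for the unbound tissues. Testing against the 2-fold bound gave 940 genes higher in motor neurons, 1633 and 200 for layer 5b against unbound cortex, 320 and 1975 for motor TRAP against unbound brainstem, 411 and 1643 for the unbound tissues, 3428 and 261 for the difference of gains and 51 genes gained in both populations. An expression minimum of 8 gave 276 genes lower than unbound cortex, 2107 lower than unbound brainstem, 2274 higher in unbound brainstem and 232 gained in both, and no expression filter gave 903 lower than unbound cortex. The mean of all probe sets gave 2131 genes lower than unbound brainstem and 493 higher in unbound cortex. The compared arrays alone gave 421 genes lower in the difference of gains. Leaving out genes identical on all 3 arrays, chosen after seeing the data, gave 311 lower than unbound cortex and 366 lower in the difference of gains.

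Without 1 array at a time, genes higher in layer 5b numbered 3575 to 3849 and in motor neurons 1462 to 1543. Of 171 alternative counts, 139 stayed within 1.5 times the value reported. Gphn turned to 0.045 with the mean of all probe sets, and the differences of gains of Wdr25 and Kcnk12 turned to -0.87 and -0.52 under quantile normalization; the cause was not tested. With the replicate block, on the compared arrays alone, 3567 genes lay on the layer 5b side and 1482 on the motor side, and motor TRAP was higher than unbound brainstem for 961 genes and lower for 3269. Between layer 5b and motor arrays the numbers did not pair the samples (r = 0.19, -0.26 and 0.29 over genes). Levels near the background of an array limit what fold changes can show, since a group under 6 gives only a bound.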
